A study of Mus musculus with 6 samples.

Results

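The 10 genes described here are those of the principal cells of the kidney collecting duct that carry out or control water and sodium transport: Aqp2, Aqp3, Aqp4, Avpr2, Scnn1a, Scnn1b, Scnn1g, Hsd11b2, Fxyd4 and Elf5. They were picked by gene symbol, with earlier results of these data known. Shares of the 10 set beside all genes are therefore descriptions and not tests. All 10 were found among the 34714 rows of the count table, and all 10 were among the 18927 genes that passed the filter on low counts. RNA sequencing was done on kidneys taken 10 days after unilateral ureteral obstruction, the tying of one ureter, which injures and scars the kidney on that side. Of the 6 libraries, 3 were from wild-type (C57BL/6J) kidney and 3 from kidney with a global deletion of miR-92b (miR-92b-/-, on the C57BL/6JGpt background). The mice were male, 8 weeks old and operated on, and sham-operated kidneys were not analysed here, so nothing below compares obstructed with healthy kidney. The treatment protocol describes the ligated kidneys as controls without fibrosis, which goes against the treatment label, and the label was followed. The comparison sets knockout beside wild type in the obstructed kidney. Because the named backgrounds differ between the groups, the deletion and the background cannot be told apart in any result below.

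Principal cells take up sodium through the epithelial sodium channel ENaC, which is built from an alpha, a beta and a gamma subunit (Scnn1a, Scnn1b, Scnn1g), and pump it out with the sodium pump, which Fxyd4 modulates. Aldosterone drives this uptake through the mineralocorticoid receptor, and Hsd11b2 protects that receptor by inactivating glucocorticoids. Water follows when vasopressin binds its V2 receptor (Avpr2) and sends the water channel Aqp2 to the luminal membrane, and it leaves through Aqp3 and Aqp4 on the other side of the cell. Elf5 is a transcription factor of the ETS family that marks principal cells within the kidney. Loss of Aqp2 is a known feature of the obstructed kidney.

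Sequences of 2 kinds are shown: a match to the deleted microRNA, and promoter windows with the core motif of the ETS family of Elf5. Whether the microRNA or Elf5 acts on the printed sequences was not tested. The first is the mature microRNA and the only site of it, of at least 7 bases, that was found in the 3' UTR of a gene whose sequence is printed here. Capitals mark the seed, bases 2 to 8, in the microRNA and the site in the UTR. The site matches bases 2 to 7 of the microRNA, followed by an A, and does not match base 8.
miR-92b-3p: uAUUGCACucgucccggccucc
Aqp2 site: cctcctgtaccTGCAATAaatccacttcct
The microRNA lies at chr3:89227126-89227147 on the minus strand (RefSeq, GRCm38.p6). The Aqp2 site is a 7mer-A1 site (TGCAATA), with its matching bases at chr15:99584523-99584529 on the plus strand (GENCODE M21, GRCm38). It starts at position 481 of a 3' UTR of 505 nt.

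The search covered 1 UTR per gene, the longest in the annotation. None of the 10 held an 8mer (GTGCAATA) or a 7mer-m8 site (GTGCAAT). Aqp4 held 1 site of the 7mer-A1 type and 1 6mer (TGCAAT) in a 3' UTR of 3955 nt, and the other 8 genes held no site of these types. Among the 15384 tested genes with a 3' UTR to search, 6.10% had a 7mer-A1 as their longest match and 74.7% had no match. Whether the microRNA acts on any of these sites was not tested.

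The second set is the promoter windows, from 250 bases before to 50 after the RefSeq start site, of the 3 genes that hold the ETS core AGGAAG, or CTTCCT on the other strand. Capitals mark every match to the motifs searched.
Aqp2: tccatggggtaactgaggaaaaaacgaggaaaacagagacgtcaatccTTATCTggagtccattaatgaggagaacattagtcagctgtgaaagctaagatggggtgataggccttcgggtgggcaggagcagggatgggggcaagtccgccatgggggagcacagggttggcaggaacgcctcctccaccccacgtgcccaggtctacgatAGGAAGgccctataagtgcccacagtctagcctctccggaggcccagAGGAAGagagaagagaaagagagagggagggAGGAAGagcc
Fxyd4: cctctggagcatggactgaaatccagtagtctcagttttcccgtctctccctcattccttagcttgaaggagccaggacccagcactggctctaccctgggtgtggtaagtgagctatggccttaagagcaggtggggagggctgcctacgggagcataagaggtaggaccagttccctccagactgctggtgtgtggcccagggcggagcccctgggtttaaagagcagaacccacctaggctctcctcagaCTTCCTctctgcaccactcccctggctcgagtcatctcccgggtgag
Scnn1b: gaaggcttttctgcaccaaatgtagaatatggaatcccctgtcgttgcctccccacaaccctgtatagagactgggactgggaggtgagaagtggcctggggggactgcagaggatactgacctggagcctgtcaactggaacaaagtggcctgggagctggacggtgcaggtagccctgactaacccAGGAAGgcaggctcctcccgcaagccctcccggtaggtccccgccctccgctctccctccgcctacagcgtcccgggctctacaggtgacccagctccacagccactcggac
These windows lie at chr15:99578806-99579105 (plus strand), chr6:117937286-117937585 (minus strand) and chr7:121864788-121865087 (plus strand), all in GRCm38.p6. The Aqp2 window held the ETS core 3 times and the GATA motif AGATAA once, as TTATCT. The windows of Fxyd4 and Scnn1b held the ETS core once each.

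RefSeq windows were found for 7 of the 10 genes, and Aqp4, Scnn1a and Hsd11b2 were not among them. The ETS core is common: 35.4% of all 32851 windows of this length held it, and GATA stood in 11.2%. Neither window of Elf5 itself, and not that of Scnn1g, held any of the 7 motifs searched on both strands. The others were the longer ETS motif CCGGAAGT (3.89% of all windows), the AP-1 motif TGAGTCA (5.2%), the cyclic AMP response element TGACGTCA (1.79%), the forkhead motif TGTTTAC (3.65%) and the TATA box TATAAA (13.6%). Avpr2 held the forkhead motif and TATAAA, and Aqp3 held TATAAA alone. No matches overlapped one another. These are matches of letters and not binding sites.

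Detection was looked at first, and in whole kidney it does not show which cells the RNA came from. All 10 genes were detected in every library, and so were all 10 genes of a separate list of principal cell and inner medullary duct markers, among them Npnt (156 to 243 CPM) and Tmem45b (26.6 to 42.2 CPM). CPM is the read count divided by the scaled library total, so that libraries can be compared. Some of the 10 are not confined to principal cells: Aqp3 and ENaC are also found in urothelium, Aqp4 in fast skeletal muscle, and Hsd11b2 and ENaC in the connecting tubule. Because whole kidney was sequenced, fewer principal cells and less RNA per cell cannot be told apart in any result below.

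Library totals ran from 38738204 to 51932509 counts, and no pair of libraries agreed within sampling noise. Knockout replicate 3 stood apart. It had the lowest level of all 6 libraries for 9 of the 10 genes, and the exception was Aqp3, which was lowest in wild-type replicate 1. Of all genes tested, 18.95% were lowest in that library. Its summed CPM was also the lowest for proximal tubule markers (1115, against 2139 to 4895 in the wild type), for thick limb and distal tubule markers (1006, against 1905 to 5015) and for intercalated cell markers (310 against 388 to 466), while it was the highest for fibroblast markers (4934, against 1232 to 2628). General epithelial markers such as Epcam and Cdh1 summed to 1476 CPM there, within the wild-type range of 1344 to 1634. The values are therefore also given without this library.

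Compared per transcript length, the genes spanned a wide range. In the wild type, Hsd11b2 was the most abundant, at 82.1 ± 12.4 CPM per kb of its longest transcript (SD, n = 3), followed by Aqp2 at 65.7 ± 19.9, and their libraries overlapped. Fxyd4 came next at 28.5 ± 1.72 CPM per kb, below every Aqp2 library. Scnn1a (20.6 ± 1.70), Aqp3 (20.0 ± 8.70), Scnn1b (18.8 ± 3.34) and Scnn1g (14.1 ± 2.77) formed a run in which each neighbour overlapped the next. The receptor Avpr2, at 4.27 ± 0.24 CPM per kb, lay below all of these and overlapped Aqp4, at 3.77 ± 0.98. Elf5 was the lowest, at 1.41 ± 0.17 CPM per kb.

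In the knockout the order at both ends was the same by the longest transcript. Hsd11b2 stood at 67.7 ± 19.0 CPM per kb and no longer overlapped Aqp2, at 27.4 ± 17.9, which now overlapped Fxyd4, at 16.8 ± 2.08. Fxyd4 stood below Scnn1a (18.8 ± 4.14) and Scnn1b (18.0 ± 6.92) there, with overlap. Avpr2, Aqp4 and Elf5 were again the 3 lowest. The length used matters for genes with short isoforms. With the median instead of the longest annotated transcript, wild-type Aqp4 was at 15.6 and Fxyd4 at 58.4 CPM per kb. Wild-type Aqp4 then stood above Avpr2 (8.66) and, with overlap, above Scnn1g (14.1). In the knockout Fxyd4 (34.4) then stood above Aqp2 (27.4), with overlap.

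**Figure D1:**
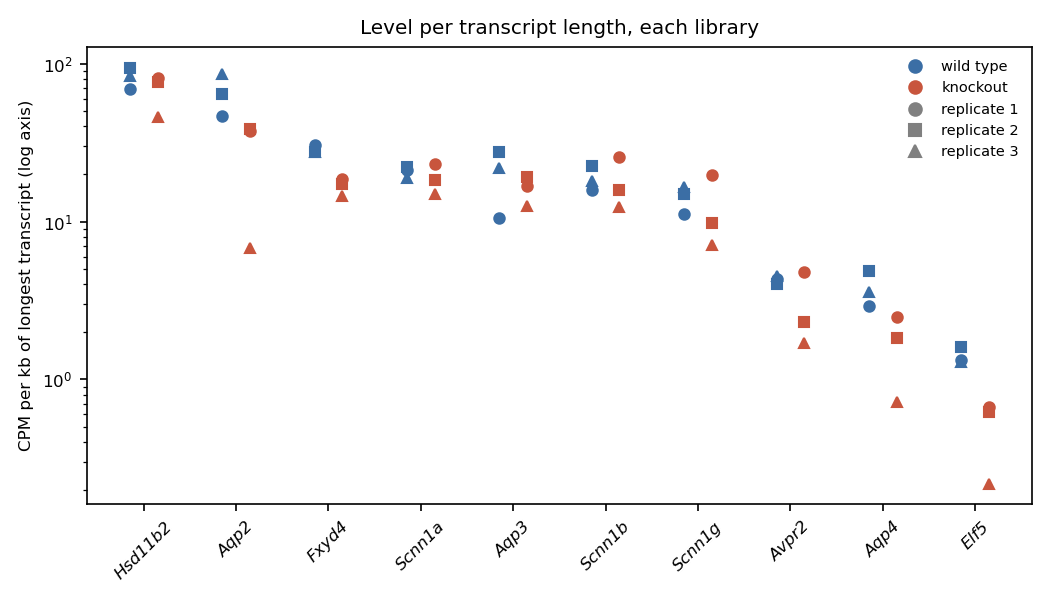
Level of each gene in CPM per kb of its longest transcript (log axis), with 1 point per library, blue for wild type and red for knockout, and the replicate number by shape. Genes are ordered by their wild-type mean, from Hsd11b2 (82.1) to Elf5 (1.41), and the triangle of knockout replicate 3 lies far below the other Aqp2 points.

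The difference between the groups was uneven across the 10 genes. The luminal water channel Aqp2, the basolateral Aqp4, the pump modulator Fxyd4 and the factor Elf5 were lower in all 3 knockout libraries than in any wild-type library. The receptor Avpr2, the 3 ENaC subunits, Hsd11b2 and Aqp3 overlapped between the groups. The fold change lay below 0 for all 10 genes, as it did for 52.3% of all genes tested, and their median log2 fold change (knockout minus wild type) was -0.42, against -0.018 over all genes.

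With edgeR's quasi-likelihood test, 0 of the 10 passed an adjusted p of 0.05 over all genes, and the background was 0%: no gene of the 18927 passed. At an unadjusted p under 0.05, 3 of the 10 were lower, Fxyd4, Elf5 and Aqp4, where 3.52% of all genes were lower and 7.9% differed in either direction. The groups did not overlap, with the knockout lower, for 4 of the 10 and for 7.2% of all genes (16.1% in either direction). Because the 10 were chosen with earlier results known, an excess over these shares was not tested. DESeq2 called 1 of the 10, Fxyd4, where it called 0.148% of genes lower. Limma-voom called 0 of the 10, where it called 0.0159% of genes in either direction. The p-values measure the spread between these libraries, since the labels do not say that each came from a different animal.

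**Figure D2:**
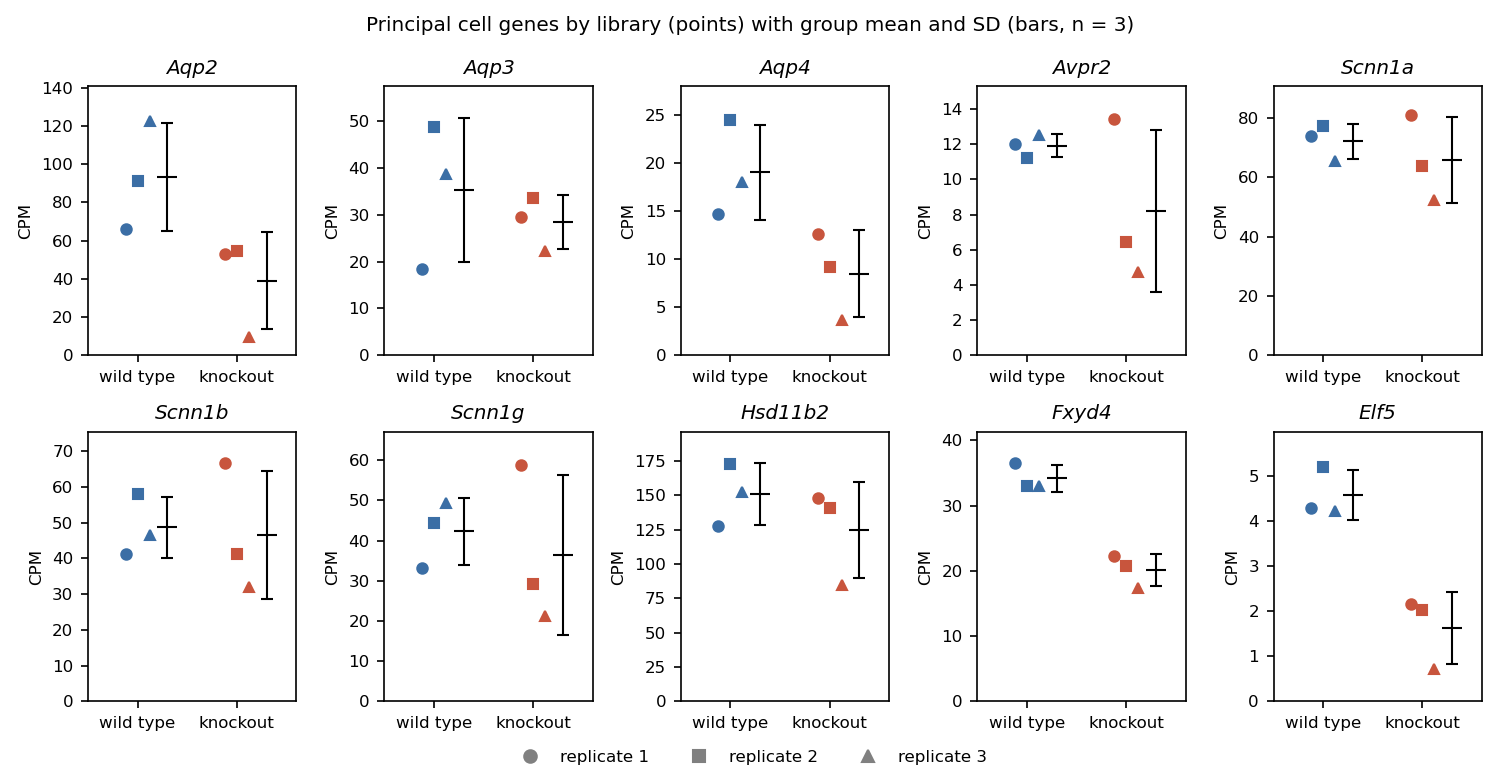
CPM of the 10 genes, 1 panel per gene, with 1 point per library (blue wild type, red knockout, shape for the replicate number) and the group mean with its SD (n = 3) beside the points. Fxyd4 and Elf5 separate the groups with a wide gap, while the knockout points of Scnn1b and Scnn1g lie on both sides of the wild-type points.

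Among the water channels, Aqp2 is the one that vasopressin moves to the luminal membrane, which sets how much water the duct takes up. It measured 66.1, 91.1 and 122 CPM in wild-type replicates 1 to 3 and 52.8, 54.3 and 9.63 CPM in the knockout. The groups did not overlap, but knockout replicates 1 and 2 lay close below the lowest wild-type library and replicate 3 lay far below. The means were 93.2 ± 28.2 and 38.9 ± 25.4 CPM (SD, n = 3), a log2 fold change of -1.26 ± 0.58 (SE; 95% interval -2.63 to 0.11) with an edgeR adjusted p of 0.627. Without knockout replicate 3 it was -0.80, and it was -0.55 when wild-type replicate 3 was dropped too.

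Aqp4, a basolateral exit path for water, lies on chromosome 18 at 15389496 to 15410982 (GRCm38, minus strand). Its levels were 14.7, 24.4 and 18.0 CPM in the wild type and 12.6, 9.19 and 3.64 CPM in the knockout. Every knockout library was lower, with replicate 1 nearest to the wild type. The log2 fold change was -1.17 ± 0.42 (95% interval -2.15 to -0.19; edgeR adjusted p = 0.627), and -0.81 without knockout replicate 3.

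Fast muscle also holds Aqp4, and its markers differed between the groups too. Of 7 tested fast muscle genes, 5 were lower in every knockout library, where 7.2% of all genes were. Myh4, a fast myosin, was at 1.44, 1.07 and 1.11 CPM in the wild type and at 0 counts in all 3 knockout libraries, so no fold is given. The other 4 were Myh1, Acta1, Ckm and Tnnt3, and none of the 5 was above 1.80 CPM in any library. The summed muscle list ran from 20.3 to 27.4 CPM in the wild type and from 21.0 to 29.6 CPM in the knockout, most of it from Mybpc2, which was not lower. The part of muscle RNA in the Aqp4 difference was not tested.

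Aqp3, the other basolateral channel, did not separate the groups. It measured 18.5, 48.7 and 38.7 CPM in the wild type and 29.6, 33.5 and 22.3 CPM in the knockout, so that the lowest library was wild type. The log2 fold change was -0.31 ± 0.33 (95% interval -1.09 to 0.46; edgeR adjusted p = 0.77). It was -0.62 without wild-type replicate 1 and at 0 to 2 decimals without wild-type replicate 2. Aqp3 thus gave no detectable difference at this spread, and a halving of its level is just inside the interval.

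Avpr2, the V2 receptor that starts the vasopressin signal, was even across the wild type, at 12.0, 11.2 and 12.5 CPM. The knockout libraries measured 13.4, 6.44 and 4.75 CPM, 1 above the wild-type range and 2 below it. The log2 fold change was -0.54 ± 0.36 (95% interval -1.38 to 0.31; edgeR adjusted p = 0.666), -1.09 without knockout replicate 1 and -0.26 without knockout replicate 3. Avpr2 counts are uncertain, because 81.3% of its exonic bases on chromosome X also lie in exons of Arhgap4 on the opposite strand, and whether reads were counted by strand is not given in the sources used here. Arhgap4 ran from 26.6 to 43.4 CPM, above Avpr2 in every library.

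The 3 ENaC subunits showed no separation. Scnn1a, the alpha subunit, measured 73.8, 77.2 and 65.6 CPM in the wild type and 81.0, 63.9 and 52.3 CPM in the knockout. Scnn1b, the beta subunit, measured 41.2, 58.2 and 46.7 CPM against 66.7, 41.2 and 32.1 CPM. Scnn1g, the gamma subunit, measured 33.2, 44.4 and 49.3 CPM against 58.8, 29.2 and 21.2 CPM. For each subunit the highest of all 6 libraries was knockout replicate 1 and the lowest was knockout replicate 3, so the knockout spanned the wild-type range on both sides.

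The log2 fold changes of the subunits were -0.14 ± 0.18 for alpha (95% interval -0.54 to 0.27), -0.06 ± 0.27 for beta (-0.68 to 0.56) and -0.22 ± 0.36 for gamma (-1.05 to 0.61), with edgeR adjusted p of 0.81, 0.948 and 0.847. Without knockout replicate 3 all 3 stood slightly above 0, at 0.005, 0.15 and 0.06. The interval of the alpha subunit is narrow enough to leave out a halving, and that of gamma is not.

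Because the channel is assembled from all 3 subunits, their ratios within a library were also compared. The log2 ratio of Scnn1b to Scnn1a averaged -0.58 ± 0.23 (SD, n = 3) in the wild type and -0.54 ± 0.23 in the knockout. That of Scnn1g to Scnn1a averaged -0.79 ± 0.37 and -0.96 ± 0.44, and that of Scnn1g to Scnn1b averaged -0.21 ± 0.25 and -0.43 ± 0.22. The exact two-sided permutation test over samples gave p of 1, 0.6 and 0.4 for these 3 ratios (adjusted over the 3, 1, 0.9 and 0.9), where 0.1 is the smallest that 3 against 3 allows. No difference in subunit ratio was detectable.

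Hsd11b2, the enzyme that guards the mineralocorticoid receptor, was the most abundant of the 10 in every knockout library. It measured 128, 173 and 152 CPM in the wild type and 148, 141 and 84.4 CPM in the knockout. Knockout replicates 1 and 2 lay within the wild-type range and only replicate 3 lay below it. The log2 fold change was -0.28 ± 0.23 (95% interval -0.82 to 0.26; edgeR adjusted p = 0.715), and -0.06 without that library.

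Fxyd4, the pump modulator, had the smallest p of the 10 and ranked 18 among all genes tested. Its libraries were tight, at 36.6, 33.1 and 33.0 CPM in the wild type and 22.3, 20.7 and 17.4 CPM in the knockout. The lowest wild-type library was well above the highest knockout library, and the gap did not rest on knockout replicate 3. The means were 34.2 ± 2.07 and 20.1 ± 2.50 CPM, 1.70-fold lower in the knockout, with a log2 fold change of -0.76 ± 0.15 (95% interval -1.10 to -0.43). The edgeR adjusted p was 0.627. The DESeq2 adjusted p was 0.0139, the lowest of its alternatives, which ran up to 0.971. Fxyd4 was at -0.67 without knockout replicate 3 and at -0.59 with the trend of fold change on transcript length removed.

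Elf5, the ETS factor, had the largest fold difference of the 10. It measured 4.30, 5.22 and 4.23 CPM in the wild type and 2.17, 2.02 and 0.715 CPM in the knockout, from 36 to 258 reads a library. Every knockout library was below every wild-type library. The means were 4.59 ± 0.55 and 1.63 ± 0.80 CPM, 2.81-fold lower in the knockout, with a log2 fold change of -1.49 ± 0.42 (95% interval -2.46 to -0.52; edgeR adjusted p = 0.627). It was at -1.13 without knockout replicate 3. The other epithelial ETS factors listed, Elf3 and Ehf, stood at -0.19 ± 0.14 and -0.12 ± 0.24.

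Which of the 10 were lower at an unadjusted p under 0.05 depended on the libraries used. Fxyd4 and Elf5 were among them with each single library left out. They were the only 2 of the 10 without wild-type replicate 2 (3.87% of all genes) and without knockout replicate 2 (1.34%). Aqp4 joined them without wild-type replicate 3 (4.92%), Aqp3 and Aqp4 without wild-type replicate 1 (2.52%), and Aqp2 and Aqp4 without knockout replicate 3 (2.34%). Without knockout replicate 1 there were 5, with Aqp4, Avpr2 and Scnn1g (3.77%).

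Without knockout replicate 3, 7 of the 10 had a fold change below 0 (52.8% of all genes did), the exceptions being the 3 ENaC subunits. The median of the 10 was then -0.21, and without knockout replicate 1 it was -0.79. With replicate 3 dropped from each group, the median was -0.16 and 8 of the 10 lay below 0 (50.4% of all genes). Aqp2, Aqp4, Fxyd4 and Elf5 were then lower at an unadjusted p under 0.05, against 4.38% of all genes. No gene of the 10 passed the adjusted threshold with edgeR in any of these fits.

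**Figure D3:**
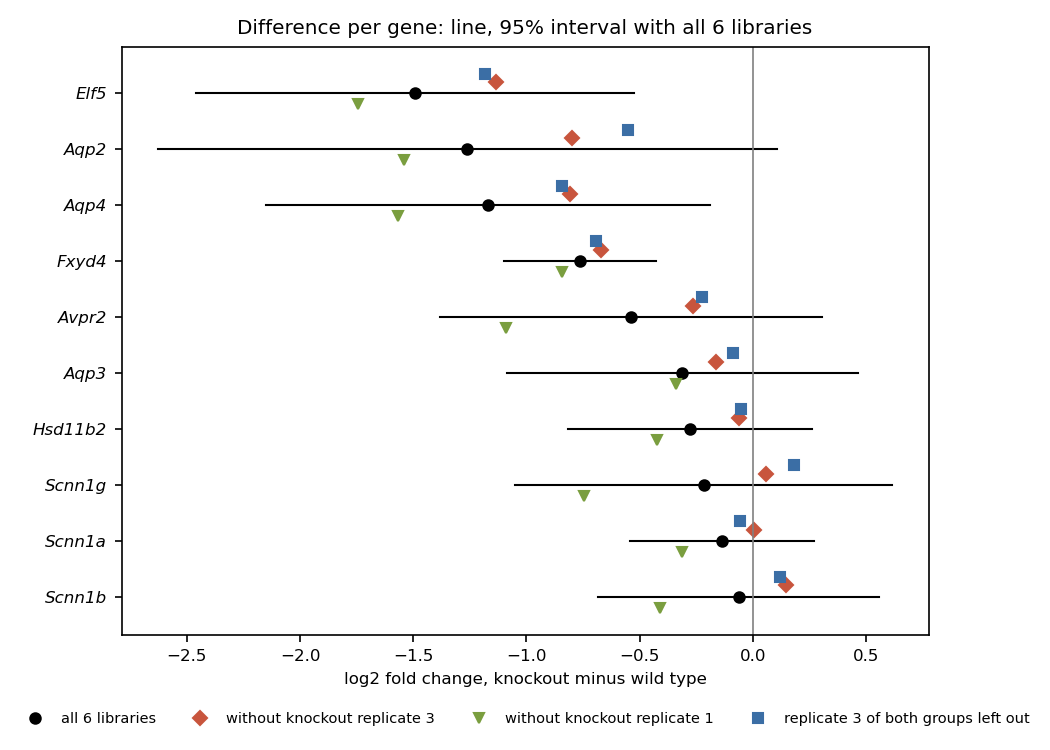
Log2 fold change (knockout minus wild type) of each gene with all 6 libraries (black, with its 95% interval) and with libraries left out (red, green and blue symbols). Elf5, Aqp2, Aqp4, Fxyd4, Avpr2, Aqp3 and Hsd11b2 lie below 0 under every setting drawn, Aqp3 and Hsd11b2 close to 0 in some. The 3 ENaC subunits cross 0 without knockout replicate 3 (0.005 to 0.15).

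The pattern of Aqp2 over the 6 libraries was compared with that of every other gene at a mean of at least 5 CPM, as the root mean square difference of log2 deviations. Among 12438 genes the nearest were Inmt (0.382), Car15 (0.383), Retnla (0.397), Hsd3b2 (0.421) and Aqp4 (0.443). Each was lowest in knockout replicate 3, as Aqp2 was, and of these only Aqp4 also separated the groups. Retnla, for one, measured 9.10, 9.37 and 12.7 CPM in the wild type and 9.76, 9.34 and 1.99 CPM in the knockout. Elf5, which is under the minimum level, stood at 0.430. Among the other members, Scnn1a was the least like Aqp2, at 1.03.

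Lists of other genes of the same cells and pathways are described next, and no difference between lists was tested. Of 10 other principal cell and medullary duct markers, 0 passed the adjusted threshold, 4 were above 0 and 6 below, and the median was -0.24 on the log2 scale. The 3 with the smallest p were Rnf186 (-0.39 ± 0.22), Tmem45b (-0.29 ± 0.18) and Apela (-0.71 ± 0.49), a peptide hormone that measured 24.5, 25.9 and 22.2 CPM in the wild type and 24.2, 15.7 and 4.63 CPM in the knockout. Npnt, an adhesion protein of the duct, was at 0.17 ± 0.19. Without knockout replicate 3 the median of this list was 0.07, and without wild-type replicate 2 it was 0.17.

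Of 14 tested transcription factors of the duct, 0 passed and 12 were below 0, with a median of -0.15. Gata2 and Gata3, zinc finger factors of the duct, were at -0.30 ± 0.16 and -0.31 ± 0.21, and Pax2, a kidney lineage factor, at -0.25 ± 0.18. Tfcp2l1, a factor of both collecting duct cell types, was at 0.16 ± 0.24. None of the 14 separated the groups, where 16.1% of all genes did in either direction.

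Of 21 genes of vasopressin signalling and AQP2 traffic, 0 passed, 13 were above 0 and 8 below, with a median of 0.10. In this list 2 genes were higher at an unadjusted p under 0.05 (4.38% of all genes were), the anchoring protein Akap13 at 0.52 ± 0.19 and the adenylyl cyclase Adcy3 at 0.53 ± 0.20. With these, the protein kinase A subunits Prkar2a (0.48 ± 0.22), Prkacb (0.30 ± 0.15) and Prkaca (0.28 ± 0.14) were higher in every knockout library, 5 of 21 against 8.95% of all genes, and 0 were lower without overlap. Adcy6, another adenylyl cyclase of these cells, was at -0.12 ± 0.20.

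Of 19 genes of aldosterone signalling and ENaC control, 0 passed, 12 were above 0 and 7 below, with a median of 0.12. Nedd4, a ubiquitin ligase, was higher in every knockout library, at 483, 785 and 719 CPM in the wild type and 954, 1089 and 1247 CPM in the knockout (0.73 ± 0.24; edgeR adjusted p = 0.627). Its relative Nedd4l, the ligase known to remove ENaC from the membrane, was at -0.08 ± 0.17. The glucocorticoid-induced Tsc22d3 was at 0.37 ± 0.15 and the potassium channel Kcnma1 at 0.49 ± 0.20, both without overlap. With Nedd4 and Furin, 4 of the 19 were higher without overlap, against 8.95% of all genes. The receptor Nr3c2 stood at 0.31 ± 0.23 and its target kinase Sgk1 at -0.24 ± 0.26. Of the proteases that activate ENaC, Furin stood at 0.39 ± 0.18, St14 at 0.17 ± 0.14 and Prss8 at -0.50 ± 0.29. In the same list was the beta subunit of the sodium pump, Atp1b1, at -0.05 ± 0.41.

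Relatives of the 10 genes in the same families lay more often below 0 than above it. Of 17 tested, 0 passed, 5 were above 0 and 12 below (52.3% of all genes were), with a median of -0.15. Without overlap, 2 were higher (8.95% of all genes were) and 1 was lower (7.2%), Fxyd7 at -0.97 ± 0.47. Fxyd7 was close to the floor, at 1.0, 0.49 and 0.38 CPM in the wild type and 0.34, 0.34 and 0.28 CPM in the knockout. Fxyd6 was higher in every knockout library (0.67 ± 0.24) and Fxyd2, the pump modulator of other tubule segments, was at -0.67 ± 0.35. The proximal tubule water channel Aqp1 was at -0.14 ± 0.52 and the vasopressin V1a receptor Avpr1a at 0.60 ± 0.30.

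Other cell types are given beside these values, since whole kidney was sequenced. Of 12 intercalated cell markers, the acid-base neighbours of principal cells, 0 passed and 11 were below 0, with a median of -0.18. The smallest p values were those of the pump subunit Atp6v1c2 (-0.50 ± 0.20) and the ammonia transporter Rhcg (-0.51 ± 0.21). Their sum was 388 to 466 CPM in the wild type and 310 to 455 CPM in the knockout.

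Proximal tubule markers had a median of -0.33 (1 of 9 above 0) and thick limb and distal tubule markers -0.18 (2 of 10 above 0). Without knockout replicate 3 these medians were -0.015 and 0.13. Fibroblast markers had a median of 0.85, with 7 of 7 above 0 and a summed level of 1232 to 2628 CPM in the wild type and 1722 to 4934 CPM in the knockout. The 6 endothelial markers and the 6 macrophage markers were all above 0, with medians of 0.49 and 0.32. Without knockout replicate 3 the fibroblast median was 0.42, the endothelial median 0.02 and the macrophage median 0.35. The summed macrophage level was 675.8 to 682.3 CPM in the wild type and 767.5 to 863.4 CPM in the knockout, without overlap. General epithelial markers had a median of -0.06 and urothelial markers 0.02. The urothelial median was 1.13 without wild-type replicate 2, -0.45 without knockout replicate 3 and -0.74 under limma-voom. The 5 adipocyte markers that could be tested had a median of 1.86, which rested on knockout replicate 1 and was -1.60 without it. The 5 podocyte markers had a median of -0.05. The part of these cell types in the differences of the 10 genes was not tested.

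**Figure D4:**
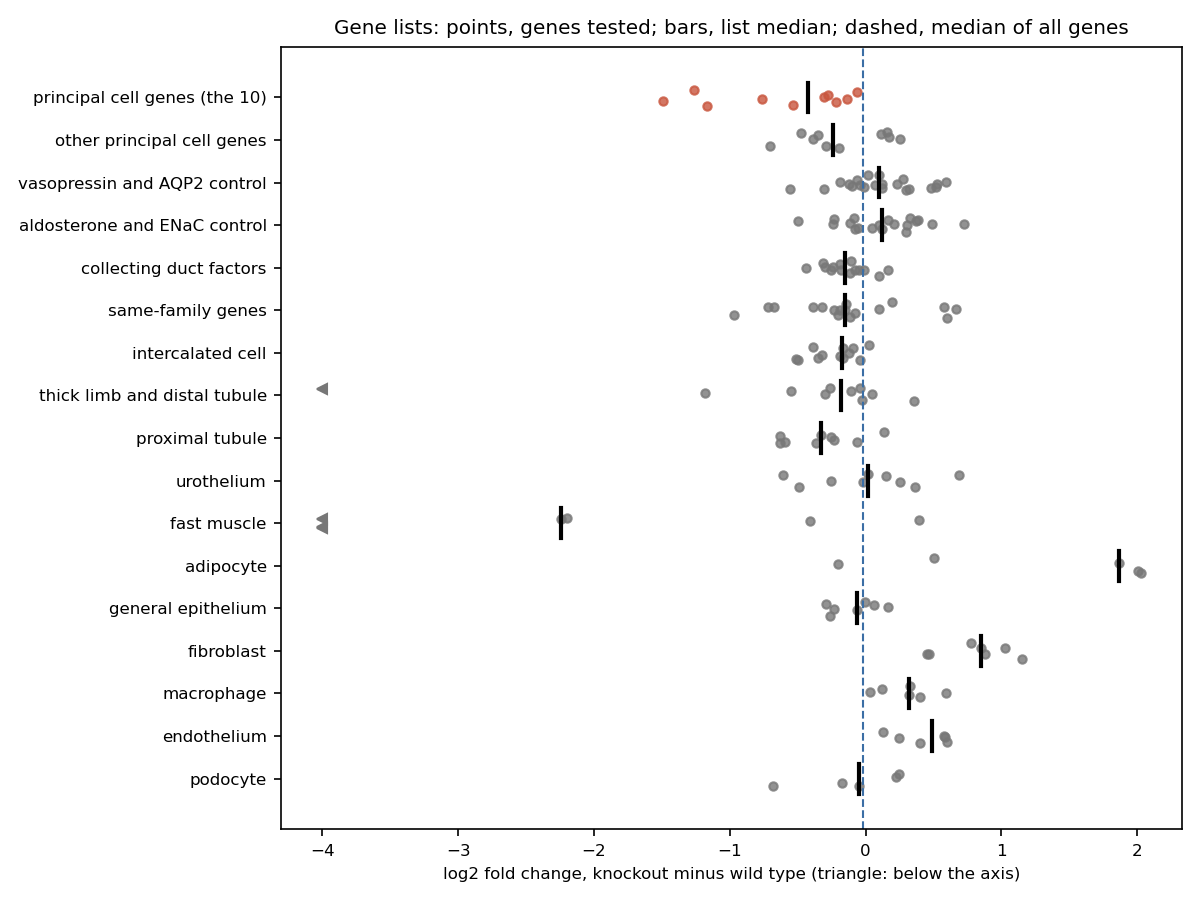
Log2 fold change (knockout minus wild type) of every tested gene in each list, with the list median as a black bar and the median of all genes (-0.018) as a dashed line. The 10 principal cell genes (red) all lie below 0, with a median of -0.42, and the fibroblast genes all lie above 0, with a median of 0.85.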

How the data were processed

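The deposited table holds raw counts by gene symbol for the 6 libraries, per the file headers. Per the submitters' processing notes the build was GRCm38 (mm10). Per the labels' protocols, total RNA went into an mRNA library kit. For aligner, counter and strand setting: not given in the sources used here.

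The 10 genes and all gene lists were chosen with earlier results of these data known, so no list was tested. filterByExpr kept 18927 genes. Counts were scaled by TMM and compared with edgeR 4.0.16 (quasi-likelihood F test, robust, group as the only term) in R 4.3.3, with Benjamini-Hochberg adjustment over all genes at 0.05. Standard errors came from the fold change and the F statistic. Log2 CPM used a prior count of 2. Positions, transcript lengths and 3' UTRs came from GENCODE M21, and promoters and the microRNA from RefSeq GRCm38.p6. The method was tested on simulated data. Alternatives were DESeq2 1.42.0, limma-voom (limma 3.58.1), other scalings and filters, robust fitting off, a replicate block, removal of the length trend, and libraries left out. Beside the 10 genes, the rule named up to 3 genes per list by p, at 1 CPM or more, and the 5 nearest to Aqp2. Further list genes were named after their values were seen. A planned comparison of protein sequences was not made. No count of miR-92b was analysed here, so the deletion was not checked.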

Additional observations from a re-analysis of the deposited data

How the results depend on the processing

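With edgeR and all libraries, 0 genes were higher and 0 lower at the adjusted threshold. DESeq2 called 34 higher and 28 lower, and 1 of the 10 principal cell genes. Limma-voom called 1 higher and 2 lower, no filter gave 1 and 1, and 1 gene was higher with replicate 3 dropped from each group. With single libraries left out the count of higher genes ran from 0 to 1 and the count of lower genes stayed at 0. Of 170 values of the 10 genes under the alternatives, 163 kept their sign, 7 turned and 1 passed the threshold (Fxyd4 with DESeq2). With replicate 3 dropped from each group, Scnn1b was at 0.12 and Scnn1g at 0.18. With single libraries left out Scnn1a ran from -0.31 to 0.005, Scnn1b from -0.41 to 0.15 and Scnn1g from -0.75 to 0.057. The median of the 10 ran from -0.79 to -0.21. The median of other principal cell markers ran from -0.38 to 0.17, that of general epithelium from -0.14 to 0.064 and that of adipocyte markers from -1.60 to 3.30, with -1.18 under limma-voom. The ENaC ratio differences ran from -0.089 to 0.13 (Scnn1b to Scnn1a), from -0.43 to 0.011 (Scnn1g to Scnn1a) and from -0.34 to -0.07 (Scnn1g to Scnn1b). The causes were not tested.

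The replicate numbers did not pair the samples: deviations from the group means correlated across genes at -0.28, 0.18 and -0.29 for replicates 1, 2 and 3, and wild-type replicate 1 was most like knockout replicate 3 (0.37). With the replicate block 1 gene was higher and 0 lower, and none of the 10 passed. With 3 libraries a group and a biological coefficient of variation of 26.9%, differences such as those of Aqp3 and Scnn1g could not be resolved. When the nearest genes to Aqp2 were taken from 1 CPM instead of 5, 3 of the 5 named were shared.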

Other observations

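Slc14a2, the urea transporter of the inner medulla, varied more between libraries than between genotypes. It measured 46.0, 66.3 and 15.4 CPM in the wild type and 33.0, 58.5 and 8.50 CPM in the knockout, highest in replicate 2 of both groups. The basal urothelial keratin Krt5 measured 81.3, 133 and 22.6 CPM and 20.1, 68.1 and 67.0 CPM, with knockout replicates 2 and 3 nearly equal. S100g, a calcium-binding protein of the distal nephron, was lower in all 3 knockout libraries, where 7.2% of all genes were. It measured 76.6, 43.3 and 73.9 CPM in the wild type and 40.9, 27.3 and 17.3 CPM in the knockout (log2 fold change -1.18 ± 0.34; edgeR adjusted p = 0.627). These genes were picked after their values were seen.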
